A study of Mus with 6 samples.

Results

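Interferon-stimulated genes are the transcripts that cells switch on when interferons reach them. A list of 37 such genes was looked up by symbol in an RNA sequencing table of 20893 mouse genes, and 35 had a row. Mx1 and Mx2, which the RefSeq annotation of GRCm38.p6 gives as transcribed pseudogenes, were not analysed here. The list was split into 3 groups: 7 type I genes (Isg15, the Ifit genes and the Oas genes), 10 interferon-gamma genes (the Gbp and Irgm genes, Igtp, Irf1, Cxcl9 and Cxcl10) and 18 others that neither set names. The libraries came from cardiac microvascular endothelial cells, magnetic-bead sorted as CD31-positive (the endothelial protein encoded by Pecam1) and CD45-negative (the leukocyte protein encoded by Ptprc). 3 libraries were from mice lacking the chemokine gene Ccl28 (KO) and 3 from wild-type mice (WT), each set numbered 2, 3 and 4, and all mice had left coronary artery ligation, which produces a myocardial infarction. Strain, age, sex, time after surgery and the cells in which Ccl28 was deleted are not given in the sources used here, and nothing says that the libraries are separate animals, so p-values measure the spread between libraries, which may be technical. The genotype label of KO replicates 3 and 4 reads Ccl29-KO and Ccl30-KO, and their titles, which read Ccl28-KO, were followed.

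Type I interferons (the alpha and beta forms) act through the receptor pair encoded by Ifnar1 and Ifnar2, and the kinases Jak1 and Tyk2 then drive the assembly of a transcription factor complex that holds Stat2 and Irf9 and turns on antiviral genes. Interferon-gamma acts through Ifngr1 and Ifngr2 with the kinases Jak1 and Jak2, and favours Irf1, the guanylate-binding proteins, the immunity-related GTPases and the chemokines Cxcl9 and Cxcl10. Many genes answer to both. Endothelial cells carry both receptor types, and in the infarcted heart interferon signalling is best known in infiltrating myeloid cells.

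Levels are given in the deposited unit, FPKM, which divides a gene's fragments by its transcript length and the size of the library, and group values are mean ± SD with n = 3 libraries per genotype. A log2 fold change compares KO with WT as log2(FPKM + 1), so that it is too small for weakly expressed genes. A gene was called where limma gave a Benjamini-Hochberg adjusted p under 0.05 among the 10806 genes tested, those reaching 1 FPKM in 3 or more libraries. Fold changes followed transcript length in these libraries. Calls on the interferon-stimulated genes that ended once that trend was taken out are given as such beside each gene, and marker calls as counts. Gene-assigned reads numbered 36004457 to 37780513 per KO library and 39104282 to 40500067 per WT library. Ccl28 itself had 0 reads in each KO library, against 16, 11 and 24 reads in WT replicates 2, 3 and 4 (exact two-sided permutation p = 0.1, the smallest that 3 against 3 libraries can give). The 10 endothelial markers were summed at 2809 to 3162 FPKM in KO and 3398 to 3434 FPKM in WT, without overlap. Of these, 5 were lower (Cdh5, Tek, Kdr, Erg and Vwf) and 1 was higher (Emcn). Endothelial transcripts were abundant in both genotypes, and whether the preparations were equally endothelial was not tested. The summed macrophage markers stood at 228.4 to 351.3 FPKM in KO and 93.6 to 229.7 FPKM in WT, with overlap. Most of each sum came from Lyz2, at 142.8 to 228.3 FPKM in KO and 58.1 to 149.2 FPKM in WT. Of the macrophage markers 7 of 10 tested were higher, and Adgre1, Csf1r and Mrc1 did not pass. Cd163 was at or below 0.0939 FPKM. Of the 4 leukocyte markers Coro1a (adjusted p = 0.000456), Laptm5 (1.43-fold, 0.0271) and Cd53 (1.74-fold, 0.0477) rose, and Ptprc did not pass, at 1.01 to 1.41 FPKM in KO and 0.871 to 1.71 FPKM in WT. The 3 tested neutrophil markers rose (the 7 listed summed to 35.9 to 56.6 FPKM in KO and 14.8 to 19.4 FPKM in WT, with Ly6g listed at 0 in 5 of 6 libraries), as did the 3 tested lymphocyte markers (17.8 to 28.8 FPKM in KO and 9.29 to 11.5 FPKM in WT over the list). Fibroblast markers were lower in 4 of 4 tested genes (8.93 to 9.93 FPKM in KO and 16.2 to 17.6 FPKM in WT) and mural cell markers in 6 of 7 (231.9 to 359.3 FPKM in KO and 336.9 to 442.8 FPKM in WT). Cardiomyocyte markers were lower in 1 of 4 tested genes (97.4 to 112.4 FPKM in KO and 78.4 to 117.8 FPKM in WT), and dendritic cell markers other than Bst2 stayed at or below 0.861 FPKM. With the length trend removed 4 endothelial markers were lower and 0 higher, and 2 macrophage and 1 leukocyte markers were higher. Neutrophil and lymphocyte markers kept 3 higher each, fibroblast markers 3 lower, mural markers 5 lower and cardiomyocyte markers 0 lower. Over all genes tested 18.3% rose and 25.8% fell, and 9.26% and 9.42% with the trend removed. The part of these other cell types in the results on the interferon-stimulated genes was not tested. In such bulk preparations fewer cells of a type and less RNA per cell cannot be told apart.

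Most interferon-stimulated genes were expressed at moderate levels in both genotypes, and the changes that passed the test were mainly decreases in KO. Of the 35 genes, all of which passed the expression filter, 11 fell, 1 rose and 23 did not pass. The genes that fell were Cxcl10, Gbp7, Parp14, Rsad2, Ifit2, Eif2ak2, Oasl2, Ifih1, Ifit1, Oas2 and Trim25, and the gene that rose was Xaf1. Over all genes tested 25.8% fell and 18.3% rose, so the share of the list that fell, 31.4%, was near the background, and 1 of 35 rising was below it. The median log2 fold change of the list was -0.20, against -0.03 over all genes, and 23 of the 35 estimates were below 0. In 9 genes every KO library lay below every WT library and in 1 gene above, while this held for 31.9% and 22.8% of all tested genes. All genes split into 1982 higher and 2790 lower, but into 2576 higher and 2390 lower with median-ratio scaling, where 10 of the list were called lower and Xaf1 higher.

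**Figure D1:**
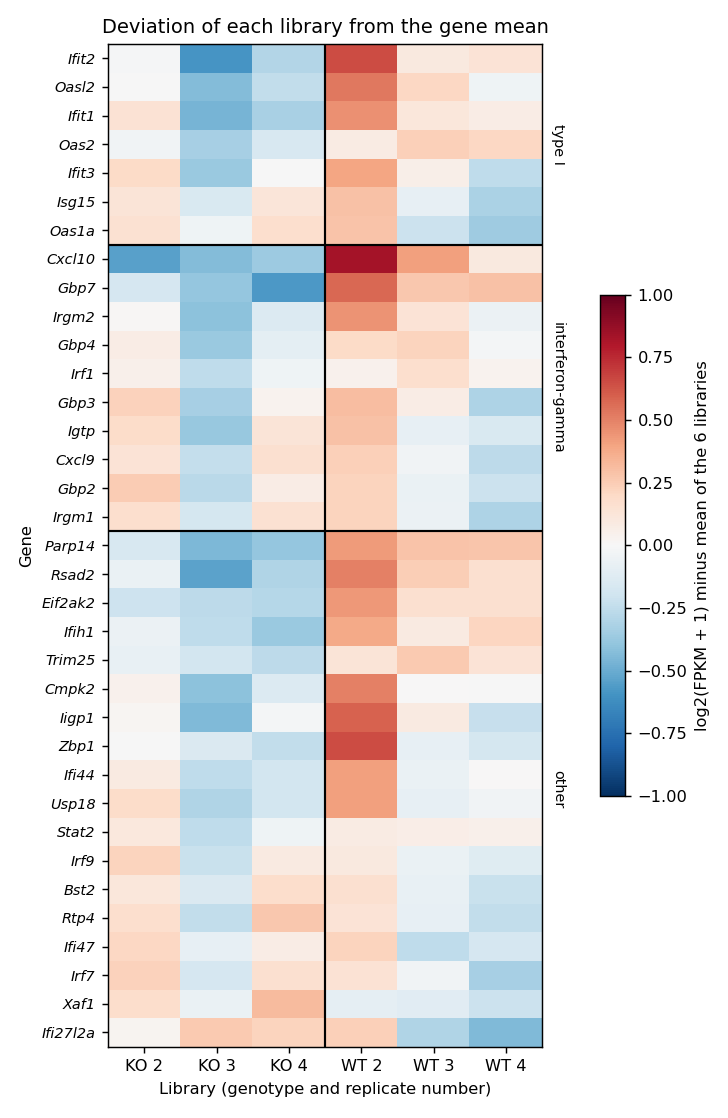
Each cell shows the log2(FPKM + 1) of 1 gene in 1 library minus the mean of that gene over the 6 libraries, with KO libraries in the left columns and WT libraries in the right columns; genes are sorted by log2 fold change within the type I, interferon-gamma and other groups. WT replicate 2 holds the highest WT value in 31 of 35 genes and KO replicate 3 the lowest KO value in 28 of 35.

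Among the type I genes 2 of 3 Ifit genes and 2 of 3 Oas genes fell, and Isg15 did not pass. Ifit proteins bind viral RNA and hold back its translation. Ifit2 (gene ID 15958, chromosome 19 from 34550550 to 34576534, GRCm38) had 17.1, 11.1 and 13.9 FPKM in KO replicates 2, 3 and 4, against 27.6, 18.5 and 19.0 FPKM in WT replicates 2, 3 and 4. Every KO value lay below every WT value, with the WT spread set by the high replicate 2. Ifit2 fell 1.55-fold (14.0 ± 2.97 in KO and 21.7 ± 5.12 FPKM in WT; log2 fold change -0.59, SE 0.17, limma adjusted p = 0.0184). After the length trend was taken out Ifit2 stood at -0.44 and was not called (adjusted p = 0.0959). Leaving out KO replicate 3 (adjusted p = 0.0521), KO replicate 4 (0.0506) or WT replicate 2 (0.0511) ended the call, and the adjusted p ranged from 0.00568 to 0.111 over the settings tried.

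Ifit1 (gene ID 15957, chromosome 19 from 34640889 to 34650009) had 19.2, 12.3 and 13.6 FPKM in KO, against 24.1, 18.8 and 18.2 FPKM in WT, in the order of replicates 2, 3 and 4 used from here on. KO replicate 2 overlapped the lower WT libraries. Ifit1 fell 1.36-fold with a log2 fold change of -0.43 (SE 0.16, limma adjusted p = 0.0468). This call was lost without KO replicate 3 or 4 or without any 1 of the 3 WT libraries (adjusted p = 0.055 to 0.148). Quantile normalization, median-ratio scaling and no filter ended the call as well, and the limma adjusted p reached 0.185 over the settings tried. Ifit3, whose span lies between those of Ifit2 and Ifit1, had 43.2, 28.9 and 37.6 FPKM in KO and 49.9, 39.4 and 31.5 FPKM in WT, with overlapping groups and a log2 fold change of -0.13 (limma adjusted p = 0.568). Ifit3 has a close copy, Ifit3b, and reads could be split between them.

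Oas proteins sense double-stranded RNA and make the oligoadenylates that activate RNase L, an enzyme that degrades RNA in infected cells. Oas2 (gene ID 246728, chromosome 5 from 120730333 to 120749886) had 14.2, 11.4 and 13.0 FPKM in KO, against 15.5, 17.4 and 17.0 FPKM in WT. The groups did not overlap, and Oas2 fell 1.29-fold (log2 fold change -0.35, SE 0.09, limma adjusted p = 0.0132). With the length trend removed it came to -0.23 and was not called (adjusted p = 0.122). Oasl2, an Oas-like gene (gene ID 23962, chromosome 5 from 114896926 to 114912245), had 24.6, 18.0 and 20.7 FPKM in KO and 36.2, 28.7 and 23.9 FPKM in WT. KO replicate 2 overlapped WT replicate 4. Oasl2 fell 1.40-fold (log2 fold change -0.46, SE 0.15, limma adjusted p = 0.0297), which did not pass when KO replicate 3 (adjusted p = 0.0875), KO replicate 4 (0.0775), WT replicate 2 (0.0877) or WT replicate 3 (0.0599) was left out, nor after the length trend was taken out (-0.45, 0.0602).

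The other tested type I genes did not pass. Oas1a, a synthetase with several near copies in the mouse whose reads could be shared, had 19.1 ± 1.601 FPKM in KO and 17.0 ± 4.36 FPKM in WT (log2 fold change 0.19, limma adjusted p = 0.324). Without WT replicate 2 its log2 fold change was 0.38 and it was called higher (adjusted p = 0.0148). Isg15, a ubiquitin-like protein that is attached to other proteins after interferon exposure, had 105.3, 86.1 and 104.7 FPKM in KO and 117.7, 90.8 and 77.0 FPKM in WT. Its groups overlapped and the means differed by less than the spread (log2 fold change 0.07, limma adjusted p = 0.725).

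Of the 10 interferon-gamma genes 2 fell, Cxcl10 and Gbp7, and each has a close relative nearby that did not pass. Cxcl10, a chemokine that draws T cells and natural killer cells through the receptor Cxcr3, is gene ID 15945, at 92346638 to 92348889 on chromosome 5. It had 5.43, 5.94 and 6.28 FPKM in KO (226, 243 and 249 reads), against 15.7, 11.4 and 9.03 FPKM in WT (698, 492 and 392 reads). The KO libraries were close to each other and all below the lowest WT library. Cxcl10 fell 2.05-fold (5.88 ± 0.427 in KO and 12.0 ± 3.35 FPKM in WT; log2 fold change -0.89, SE 0.16, limma adjusted p = 0.0020), the largest decrease of the 35. It passed in all 15 other settings tried, with an adjusted p of 0.00106 to 0.0278.

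Cxcl9, which binds the same receptor and lies 18.6 kb away, had 19.4, 14.7 and 19.7 FPKM in KO and 21.0, 17.2 and 14.5 FPKM in WT. Its groups overlapped throughout (log2 fold change 0.04, SE 0.14, limma adjusted p = 0.855). The ratio of Cxcl10 to Cxcl9 was 0.280, 0.403 and 0.318 in KO, against 0.747, 0.665 and 0.623 in WT. These ratios did not overlap (exact two-sided permutation p = 0.1, the smallest that 3 against 3 can give), and the pair was chosen after its values were seen. The annotated span of Art3 overlaps Cxcl10, and whether counting used the strand is not given in the sources used here; Art3 had 29.6 to 38.2 FPKM in KO and 30.6 to 34.1 FPKM in WT (limma adjusted p = 0.816). Cxcl10 is also made by leukocytes. The summed leukocyte markers (Ptprc, Laptm5, Coro1a and Cd53) stood at 34.2 to 40.4 FPKM in KO and 16.7 to 26.9 FPKM in WT. The summed fibroblast markers stood at 8.93 to 9.93 FPKM in KO and 16.2 to 17.6 FPKM in WT. The mural cell markers stood at 231.9 to 359.3 FPKM in KO and 336.9 to 442.8 FPKM in WT. The part of these cell types in the Cxcl10 result was not tested.

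The guanylate-binding proteins are large GTPases that gather on the membranes around intracellular microbes. Gbp7 (gene ID 229900, chromosome 3 from 142530336 to 142550151) had 12.0, 10.2 and 8.83 FPKM in KO, against 20.8, 16.6 and 17.0 FPKM in WT. The groups did not overlap. Gbp7 fell 1.75-fold (log2 fold change -0.76, SE 0.12, limma adjusted p = 0.00116), and it too passed in all 15 other settings, with an adjusted p of 0.000221 to 0.0252. Gbp3, which lies 9.9 kb from Gbp7, had 47.7, 31.9 and 41.4 FPKM in KO and 50.3, 42.7 and 32.6 FPKM in WT (log2 fold change -0.05, and 0.01 with median-ratio scaling; limma adjusted p = 0.830). The ratio of Gbp7 to Gbp3 was 0.252, 0.319 and 0.213 in KO and 0.413, 0.389 and 0.521 in WT, again without overlap and again chosen after the values were seen (exact two-sided permutation p = 0.1).

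Gbp2, in the same chromosome 3 cluster, was the most abundant member of its family on the list at 83.3 ± 15.1 FPKM in KO and 80.8 ± 13.0 FPKM in WT (limma adjusted p = 0.844). Gbp4, on chromosome 5, had 20.8 ± 3.30 FPKM in KO and 25.0 ± 2.26 FPKM in WT, and missed the threshold (log2 fold change -0.26, limma adjusted p = 0.0910; 0.0339 without KO replicate 2). Members of the Gbp family are similar in sequence, so reads could be shared between them.

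The immunity-related GTPases, which in mice disrupt the vacuoles of parasites and bacteria, did not pass. Irgm2 had 23.8, 17.5 and 21.4 FPKM in KO and 32.6, 26.1 and 22.6 FPKM in WT, with KO replicate 2 above WT replicate 4. Its log2 fold change was -0.35 (SE 0.14, limma adjusted p = 0.0629), and it was called lower without KO replicate 2 (adjusted p = 0.0405), without WT replicate 4 (0.0318), with replicate numbers as a block (0.0400) and among genes with FPKM of at least 5 (0.0494). Igtp, its neighbour on chromosome 11, had 29.8 ± 6.16 FPKM in KO and 30.5 ± 5.45 FPKM in WT, and Irgm1 had 37.01 ± 4.91 FPKM in KO and 34.7 ± 6.56 FPKM in WT. Iigp1 (27.8 ± 4.82 FPKM in KO and 35.1 ± 10.5 FPKM in WT) and Ifi47 (18.1 ± 1.88 FPKM in KO and 16.6 ± 3.25 FPKM in WT), which belong to the same GTPase family, are counted among the others. Irf1, the transcription factor that interferon-gamma induces, had 69.0, 55.9 and 64.8 FPKM in KO and 68.9, 75.0 and 68.2 FPKM in WT, a log2 fold change of -0.16 (SE 0.09, limma adjusted p = 0.156; 0.0361 after quantile normalization).

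**Figure D2:**
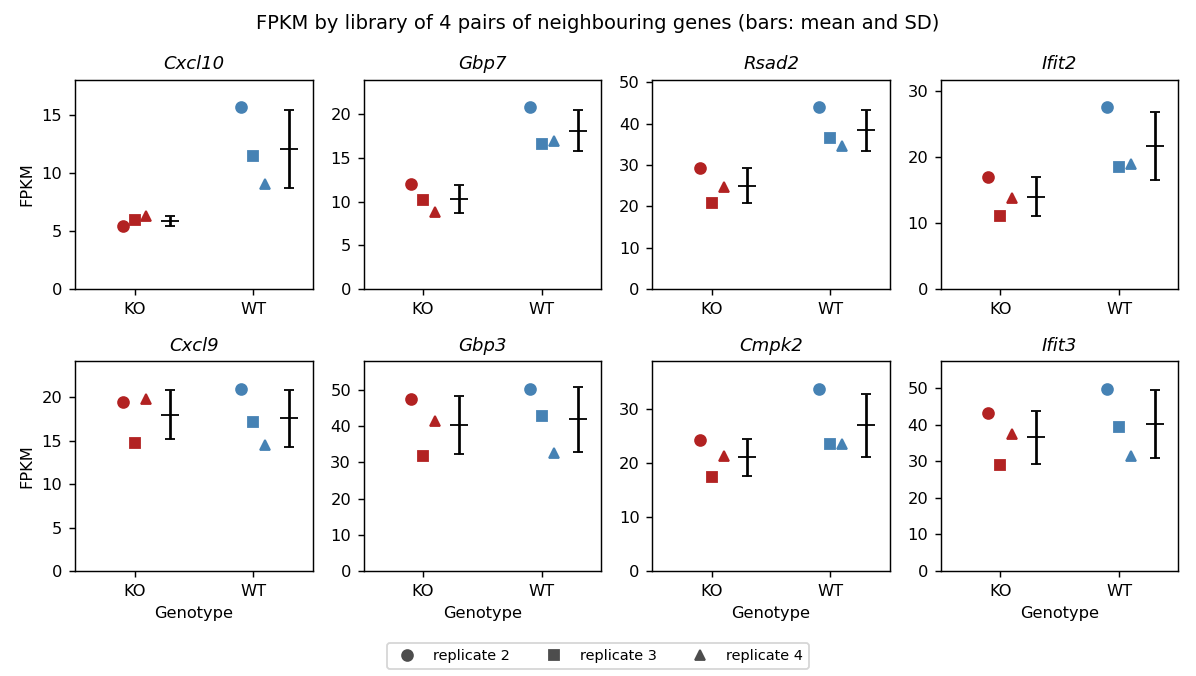
FPKM in each library for 4 pairs of neighbouring genes, KO left of WT in each panel; symbols mark replicate numbers and bars the mean and SD of 3 libraries. The upper genes (Cxcl10, Gbp7, Rsad2 and Ifit2) separate the genotypes, and the lower genes (Cxcl9, Gbp3, Cmpk2 and Ifit3) overlap.

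The comparison of the type I with the interferon-gamma genes depended on the summary used. The type I genes had 4 of 7 called lower and a median log2 fold change of -0.35, and the interferon-gamma genes had 2 of 10 called lower and a median of -0.11, against 25.8% of all genes called lower. The type I count was 1 without KO replicate 3, KO replicate 4 or WT replicate 2 and 2 without WT replicate 3, and the interferon-gamma count was 4 without KO replicate 2. The means were -0.24 for the type I genes and -0.23 for the interferon-gamma genes, because Cxcl10 and Gbp7 weigh on the mean of the second group, which was -0.09 without them. The geometric mean level of the type I genes, divided by that of the interferon-gamma genes, was 0.958, 0.915 and 0.902 in KO and 0.954, 0.896 and 0.932 in WT. These ratios overlapped between the genotypes. The 18 other genes had a median of -0.21, with 5 called lower and 1 higher.

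Ifih1, Eif2ak2 and Trim25 were among the other genes that fell, and all 3 calls ended when the length trend was removed. Ifih1 encodes MDA5, a cytosolic sensor of long double-stranded RNA (gene ID 71586, chromosome 2 from 62595618 to 62646255). It had 10.1, 8.71 and 7.98 FPKM in KO, against 14.1, 11.3 and 12.5 FPKM in WT, without overlap, and fell 1.41-fold (log2 fold change -0.46, SE 0.11, limma adjusted p = 0.00733; -0.21, adjusted p = 0.144, after length removal). Eif2ak2 encodes PKR, the kinase that halts translation when it binds double-stranded RNA (gene ID 19106, chromosome 17 from 78850504 to 78882572). It had 7.62, 7.32 and 7.19 FPKM in KO, against 12.4, 10.1 and 10.1 FPKM in WT. The groups did not overlap, and Eif2ak2 fell 1.47-fold (log2 fold change -0.50, SE 0.10, limma adjusted p = 0.00288; -0.19, adjusted p = 0.158, after length removal).

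Trim25, a ubiquitin ligase that acts on the RNA sensor RIG-I, lies on chromosome 11 from 88999403 to 89020294 (gene ID 217069). It had 27.9, 25.7 and 24.4 FPKM in KO and 32.3, 35.4 and 32.4 FPKM in WT, and fell 1.28-fold without overlap (log2 fold change -0.35, SE 0.08, limma adjusted p = 0.00569; -0.10, adjusted p = 0.366, after length removal). Zbp1, a sensor of Z-form nucleic acids that can start necroptosis, was the lowest of the 35 at 2.40 ± 0.282 FPKM in KO and 3.22 ± 1.41 FPKM in WT (limma adjusted p = 0.292).

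Of the antiviral effectors outside the type I set, Rsad2 and Parp14 fell. Rsad2 encodes viperin, which makes a chain-terminating nucleotide that stops viral RNA synthesis (gene ID 58185, chromosome 12 from 26442743 to 26456452). It had 29.3, 20.9 and 24.8 FPKM in KO, against 44.0, 36.6 and 34.5 FPKM in WT. The groups did not overlap. Rsad2 fell 1.54-fold (log2 fold change -0.61, SE 0.13, limma adjusted p = 0.00422) and passed in all 15 other settings, with an adjusted p of 0.00153 to 0.0398.

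Cmpk2, a mitochondrial nucleotide kinase gene 12.7 kb from Rsad2, had 24.3, 17.4 and 21.3 FPKM in KO and 33.7, 23.6 and 23.5 FPKM in WT. KO replicate 2 lay above both lower WT libraries (log2 fold change -0.33, SE 0.15, limma adjusted p = 0.0979; 0.0323 once replicate numbers entered the model as a block). Parp14, an ADP-ribosyltransferase (gene ID 547253, chromosome 16 from 35831892 to 35871518), had 18.2, 14.6 and 15.4 FPKM in KO, against 27.8, 25.1 and 25.0 FPKM in WT. The groups did not overlap, and Parp14 fell 1.62-fold with the smallest adjusted p of the 35 (log2 fold change -0.66, SE 0.09, limma adjusted p = 0.000721). With the length trend removed Parp14 came to -0.28 and was not called (adjusted p = 0.0537).

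Xaf1, an antagonist of the apoptosis inhibitor XIAP, was the gene that rose (gene ID 327959, chromosome 11 from 72301461 to 72313733). It had 16.1, 13.5 and 17.9 FPKM in KO, against 13.2, 13.0 and 12.1 FPKM in WT. Every KO value lay above every WT value, KO replicate 3 only narrowly. Xaf1 rose 1.24-fold (log2 fold change 0.28, SE 0.10, limma adjusted p = 0.0466), and the call was lost without KO replicate 2 or 4, without any 1 of the 3 WT libraries (adjusted p = 0.0637 to 0.158 over these) and once replicate numbers were a block (0.0848).

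The transcription factors that carry the interferon signal did not pass. Stat2 had 24.6 ± 3.15 FPKM in KO and 26.8 ± 0.335 FPKM in WT, Irf9 had 43.9 ± 6.91 FPKM in KO and 41.9 ± 3.47 FPKM in WT, and Irf7, which amplifies interferon production, had 100.5 ± 14.3 FPKM in KO and 90.7 ± 15.1 FPKM in WT. Their adjusted p-values in limma were 0.275, 0.704 and 0.387. Usp18, the protease that removes Isg15 and restrains the type I receptor, had 20.7 ± 3.92 FPKM in KO and 24.0 ± 4.95 FPKM in WT (limma adjusted p = 0.312).

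The remaining members also overlapped between genotypes. Bst2, which tethers budding virions to the cell surface, was the most abundant gene of the list with 399.6, 334.0 and 417.9 FPKM in KO and 413.5, 351.6 and 317.1 FPKM in WT (log2 fold change 0.09, limma adjusted p = 0.546). Ifi27l2a, a small mitochondrial protein gene whose span overlaps Ifi27, had 17.7, 21.0 and 20.4 FPKM in KO and 20.7, 13.9 and 12.6 FPKM in WT. It did not pass (log2 fold change 0.34, limma adjusted p = 0.106), but without WT replicate 2 its log2 fold change was 0.54 (adjusted p = 0.00370). Rtp4 had 25.6 ± 4.81 FPKM in KO and 23.2 ± 3.25 FPKM in WT, and Ifi44 had 17.3 ± 2.39 FPKM in KO and 20.6 ± 4.07 FPKM in WT. The spans of Rtp4, Stat2 and Ifit1 overlap Masp1, Apof and Ifit1bl1, which stood at or below 0.914 FPKM in every library.

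**Figure D3:**
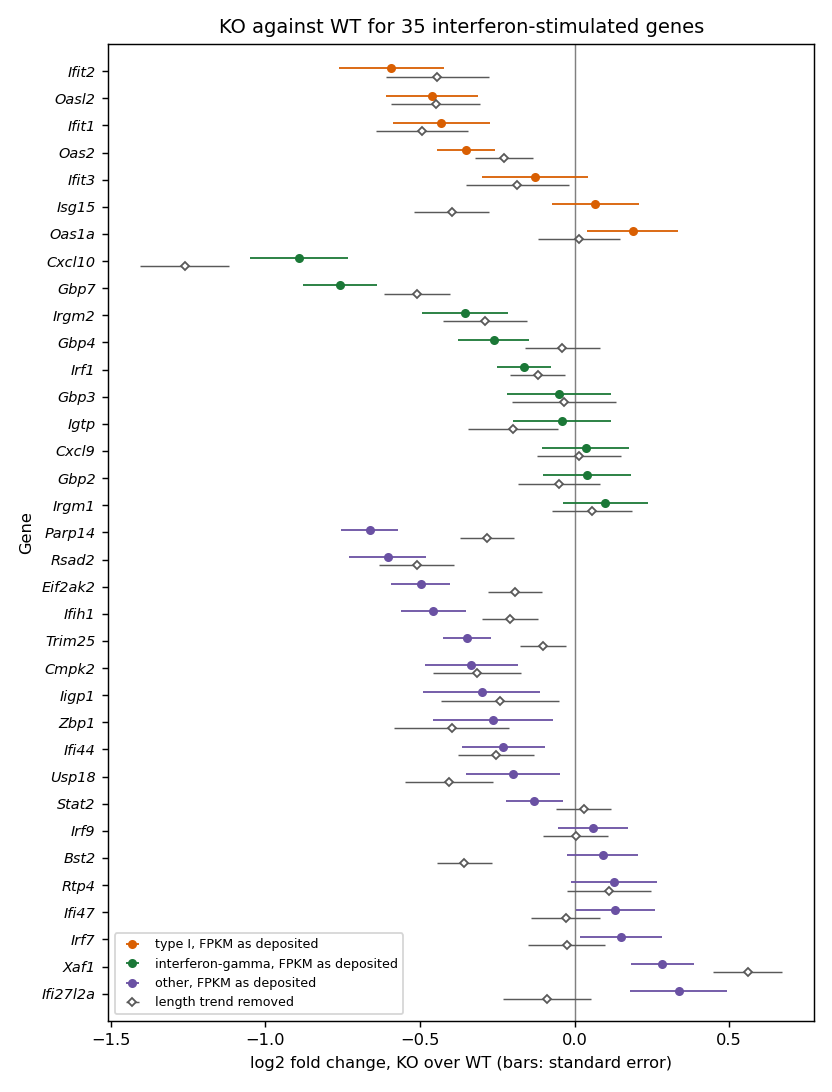
Log2 fold change of KO over WT with its standard error for the 35 genes, from FPKM as deposited (filled circles, coloured by group) and after subtraction of each library's trend with transcript length (open diamonds). Cxcl10, Gbp7 and Rsad2 lie well below 0 on both scales, whereas Bst2 and Isg15 cross from above to below 0.

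The listed genes took part in the trend of fold change with transcript length. Spearman's rho between the log2 fold change and the length implied by reads and FPKM was -0.72 across the 10806 genes and -0.53 across the 35, which are not independent replicates and share the same 6 libraries. Of the 7 listed genes with transcripts of at least 5000 nt, 6 had an estimate below 0, and of the 7 under 2000 nt, 5 had an estimate above 0. The genes called lower ran from Cxcl10 at 1101 nt to Parp14 at 8491 nt.

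After subtraction of this trend library by library, 5 of the 35 were called lower, against 9.42% of all genes, and 1 was called higher, against 9.26% of all genes. Cxcl10 (log2 fold change -1.26, limma adjusted p = 0.00235), Gbp7 (-0.51, 0.0151), Rsad2 (-0.51, 0.0227) and Ifit1 (-0.49, 0.0491) were called lower on both scales. Bst2, with a transcript of 808 nt, was called lower only after the removal (-0.36, 0.0261), and Isg15, at 756 nt, came to -0.40 (0.0517). The calls of Parp14, Ifih1, Eif2ak2, Trim25, Oas2, Ifit2 and Oasl2 were lost, at the values given above. Xaf1, at 6113 nt, moved away from the trend, to 0.56 (0.0127). The type I median was then -0.40, with 1 of 7 called lower, and the interferon-gamma median -0.09, with 2 of 10.

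**Figure D4:**
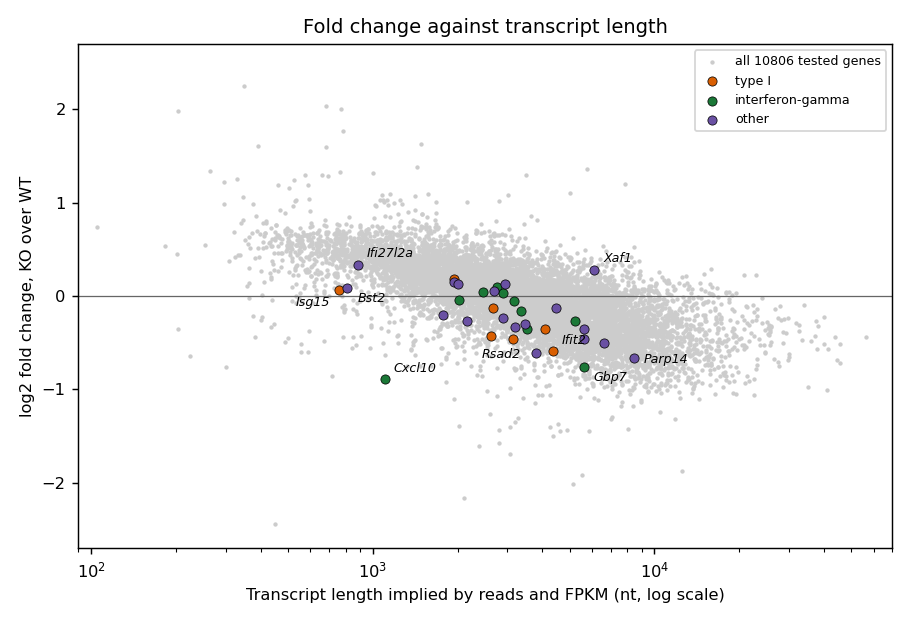
Log2 fold change of KO over WT against transcript length in nt on a log axis, for all 10806 tested genes in grey and the 35 interferon-stimulated genes in colour. Cxcl10 lies far below genes of its length and Xaf1 above them, while Parp14 lies within the grey cloud.

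The genes also moved together between libraries of the same genotype. WT replicate 2 had the highest of the 3 WT values in 31 of 35 genes, against 46.7% of all tested genes, and WT replicate 4 the lowest in 27 of 35, against 22.4%. KO replicate 2 had the highest KO value in 28 of 35, against 34.3% of all genes, and KO replicate 3 the lowest in 28 of 35, against 35.9%. The geometric mean of the 35 genes was 26.1, 20.4 and 23.7 FPKM in KO, against 31.9, 25.9 and 23.8 FPKM in WT. KO replicate 2 therefore lay above WT replicates 3 and 4 by this measure, and the groups overlapped. The summed lymphocyte and NK markers had the same order within each genotype, at 28.8, 17.8 and 25.6 FPKM in KO and 11.5, 10.9 and 9.29 FPKM in WT. The summed macrophage markers, mostly Lyz2, had another order, at 296.6, 351.3 and 228.4 FPKM in KO and 139.3, 93.6 and 229.7 FPKM in WT. The part of either cell type in the pattern was not tested. Genes whose calls were lost without WT replicate 2 were Ifit1, Ifit2, Oasl2 and Xaf1.

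Most pathway genes outside the list did not pass the test. Of 40 ligand, receptor, signalling, sensor, feedback and Isg15 conjugation genes analysed in addition to the 35, 34 were tested. Of these 7 fell, which is 20.6% against 25.8% of all genes, and 1 rose, with the median log2 fold change at -0.05. By class, 1 of 6 receptor genes, 3 of 9 kinases and factors and 3 of 10 sensors and adaptors fell. The feedback and Isg15 conjugation genes, 11 with Usp18 and Isg15 counted, had 0 lower, and the gene that rose is among them. When 1 library at a time was left out 2 to 8 were called, the fewest without KO replicate 4. Of 19 ligand genes looked up 1, Ifnb1, had a row, and Ifng did not. Ifnb1 was named after its values were seen. It had 34 reads in KO replicate 4 and 0 in the other 5 libraries, where a count of 0 allows up to 3 reads each. Among 6 receptor genes Ifnar1 fell, at 14.5, 13.0 and 13.6 FPKM in KO against 17.0, 15.9 and 15.6 FPKM in WT (log2 fold change -0.22, SE 0.08, limma adjusted p = 0.0379), while Ifnar2, Ifngr1 and Ifngr2 had adjusted p-values of 0.317, 0.384 and 0.128.

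Among kinases and factors Jak1 fell with 47.4, 46.9 and 40.6 FPKM in KO and 61.4, 53.2 and 58.6 FPKM in WT (log2 fold change -0.35, SE 0.09, limma adjusted p = 0.00842). Jak2 (-0.26, adjusted p = 0.0304) and Stat3 (-0.24, adjusted p = 0.0274) fell as well. Among the sensors Ddx58, which encodes RIG-I, fell (-0.27, limma adjusted p = 0.0264), as did Tlr3 (-0.37, 0.0305), the endosomal receptor for double-stranded RNA, and Nlrc5 (-0.50, 0.0211), an activator of class I antigen presentation genes. Ptpn6, a phosphatase abundant in blood cells, rose to 5.79, 6.76 and 4.65 FPKM in KO, against 3.72, 1.62 and 3.86 FPKM in WT (limma adjusted p = 0.0185). With the length trend removed these 8 were no longer called, and Jak2 (0.17, adjusted p = 0.132) and Ifnar1 (0.10, adjusted p = 0.360) turned to estimates above 0. Ptpn6 then had an adjusted p of 0.0607, and Ifnar2 (0.40, adjusted p = 0.00675) and Ptpn2 (0.47, adjusted p = 0.0108) were called higher.

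The authors' deposited table and limma-voom called the same 12 genes, while 3 of the 12 (Cxcl10, Gbp7 and Rsad2) were called in all 15 other settings tried. In the authors' deposited table, at a q-value under 0.05, 11 of the 35 were lower and 1 was higher, against 15.7% and 13.6% of the 17686 genes in that table. Those 17686 include genes below the expression filter, which all 35 passed, so the shares are not like for like. Among the 10806 genes that passed the filter, limma called 25.8% lower and 18.3% higher. In the authors' deposited table Cxcl10 had a log2 fold change of -0.97 with a q-value of 3.51e-05, and Gbp7 one of -0.75 with a q-value of 7.43e-09. With limma-voom on whole reads recovered from the tables the same 11 genes were called lower and Xaf1 higher, against 23.8% and 23.0% of all genes. In a model with replicate numbers as a block 13 were called lower, with Irgm2 and Cmpk2 added, and Xaf1 no longer passed; of all genes 20.4% were called lower and 14.3% higher there. In the Gene Ontology annotation of the deposited table, 21 of the 35 carry defense response to virus. Among the 126 other tested genes with that term 34 fell, which is 27.0% and near the 25.8% of all genes, and 12 rose (median log2 fold change -0.07). After the length trend was taken out, 15 of the 126 were called lower, which is 11.9% against 9.42% of all genes, and 9 higher. Of the 22 other tested genes annotated to the cellular response to interferon-beta 3 fell, or 13.6% against 25.8% of all genes, and 4 rose. Of the 66 annotated to the cellular response to type II interferon 15 fell, or 22.7%, and 11 rose. The share of all genes that rose was 18.3%. After subtraction of the length trend 3 of the 22 (13.6%) were called lower and 2 higher. Among the 66, 9 (13.6%) were then called lower and 11 higher, against 9.42% and 9.26% of all genes.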

How the data were processed

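RNA sequencing libraries from 3 KO and 3 WT preparations were analysed from 2 deposited tables. FPKM per gene were deposited by the authors, made from TruSeq stranded mRNA libraries per the labels' protocols. The submitters' processing notes name the mm10 build, the aligner HISAT2 2.1.0, the counter featureCounts 1.6.2, DESeq2 1.22.1 and fastp 0.19.3 among other tools, with no role or order, and use of strand in counting is not given in the sources used here. The second table holds, per the file headers, the authors' DESeq2 normalized mean signal per group, a linear fold change as a ratio of KO over WT, its log2 value, and p-value and q-value columns. Groups followed the titles, because the genotype field of KO replicates 3 and 4 names other chemokine numbers.

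The main test was limma 3.58.1 in R 4.3.3 (trend, genotype only, two-sided) on log2(FPKM + 1) for genes that reached 1 FPKM in 3 or more of the 6 libraries, with Benjamini-Hochberg adjustment over all of them and a threshold of 0.05. Whole reads were recovered from FPKM and the group means (100.0% of values up to 1000 reads lay within 0.05 of a whole number); they gave depth, transcript length and a limma-voom alternative with TMM scaling. A lowess curve (span 0.3) of each library's deviation on log2 length was subtracted as another alternative. The rest were quantile normalization, median-ratio scaling, a pseudocount of 0.1, no filter, FPKM of at least 5, the replicate number as a block with and without the length trend, each library left out, and, added after the data were seen, the authors' q-values. The fit was tested on simulated data. These held no trend of fold change with length and no genes moving together, so they cannot bear on either.

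The members, gene lists, markers and alternatives were chosen with earlier results of these data known. Every member is named, with full values for those past the threshold; pathway genes past the threshold are named, at most 4 per role. Coordinates and gene spans are from the RefSeq annotation of GRCm38.p6, which matched 20334 of 20893 gene IDs and all 35 members found. Promoter sequences were not analysed here. 1 pathway gene is not reported here.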

Additional observations from a re-analysis of the deposited data

How the results depend on the processing

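Of the 12 calls among the 35 genes, 3 (Cxcl10, Gbp7 and Rsad2) held in all 15 settings. Another 5 (Oas2, Ifih1, Parp14, Trim25 and Eif2ak2) were lost only where the length trend was removed. The other 4 (Ifit1, Ifit2, Oasl2 and Xaf1) were lost in other settings. Among these 4, Ifit1 and Xaf1 kept their calls where the length trend was removed, with and without the block. With the length trend removed 2019 genes were called in all, 5 of the list lower, 1 type I gene lower and 2 pathway genes, and the type I minus interferon-gamma difference of medians was -0.31, against -0.25 as reported. Quantile normalization gave 4 pathway genes and a difference of -0.14, and no filter gave 3 pathway genes, 1 type I gene lower and 0 of the list higher (Xaf1 at an adjusted p of 0.130). Same-numbered KO and WT libraries correlated at -0.195, -0.349 and -0.222 in their deviations from the genotype means. Whether they shared a batch is not given in the sources used here. These correlations cannot settle it, because deviations from a mean of 3 libraries sum to 0. With the replicate block 0 of the list were called higher and 4 pathway genes were called. With the block added and the length trend removed 716 genes were called, with 6 of the list lower, 2 type I genes lower and 2 pathway genes. The difference of medians was then -0.31. Leaving out 1 library at a time gave 3392 to 4380 genes in all, 8 to 13 of the list lower and 0 to 2 higher, 1 to 4 type I genes lower and 0 to 1 higher, 2 to 4 interferon-gamma genes lower, 2 to 8 pathway genes and a difference of -0.29 to -0.14.

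Estimates that changed sign were not called after the change, except that of Bst2 with the length trend removed (adjusted p = 0.0261, and 0.0546 with the block added); as reported, Isg15 stood at 0.07 and Ifi27l2a at 0.34. Both with the length trend removed and with the block added to that, the log2 fold change was -0.36 for Bst2, -0.051 for Gbp2, -0.09 for Ifi27l2a, -0.029 for Ifi47, -0.026 for Irf7, -0.40 for Isg15 and 0.030 for Stat2. Quantile normalization gave -0.20 for Bst2, -0.081 for Gbp2 and -0.055 for Isg15. Limma-voom gave 0.010 for Gbp3 and 0.018 for Igtp, and median-ratio scaling 0.0091 for Gbp3 and 0.0176 for Igtp. Without 1 library the range was -0.086 to 0.16 for Cxcl9, -0.079 to 0.18 for Gbp2, -0.22 to 0.11 for Gbp3, -0.29 to 0.035 for Ifit3, -0.14 to 0.14 for Igtp, -0.038 to 0.19 for Irf9, -0.031 to 0.23 for Irgm1 and -0.073 to 0.23 for Isg15. Of 314 values recomputed with other settings, 268 kept their direction and call; of 210 without a library, 174 did. The cause of these shifts was not tested. Cxcl10, with the fewest reads of the called genes, had 226 to 698 per library.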

Other observations

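Further interferon-inducible families, chosen after their values were seen, moved in both directions, beside 18.3% of all genes called higher and 25.8% lower. The immunoproteasome subunits, which cut peptides for class I antigen presentation, rose: Psmb8 had 221.3, 177.9 and 220.9 FPKM in KO replicates 2, 3 and 4, against 160.5, 148.8 and 132.1 FPKM in WT replicates 2, 3 and 4 (log2 fold change 0.49, SE 0.10, limma adjusted p = 0.00510). Psmb9 (0.42), Psmb10 (0.44) and B2m (0.38), the class I light chain, rose too, while the peptide transporter gene Tap1 (-0.03) and H2-K1 (0.17) did not pass. Of 6 genes of the Ifitm and Ifi27 group, 4 rose, among them Ifitm2 with 414.5 to 420.9 FPKM in KO and 316.2 to 330.0 FPKM in WT (log2 fold change 0.37). With the length trend removed these 8 genes were no longer called, with adjusted p-values of 0.133 to 0.993.

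Of 3 tested guanylate-binding protein genes outside the list, Gbp9 fell (26.9 to 35.4 FPKM in KO and 36.7 to 41.2 FPKM in WT; log2 fold change -0.31, limma adjusted p = 0.0276), and Gbp5 (-0.28) and Gbp6 (-0.22) did not pass. The very large inducible GTPase genes Gvin1 (-0.52) and Gvin2 (-0.52), which are similar enough to share reads, fell at levels of 0.510 to 0.793 FPKM in KO and 1.21 to 1.70 FPKM in WT. With the length trend removed Gbp9 came to -0.07, Gvin1 to -0.13 and Gvin2 to -0.12, and they were not called. The 4 tested Oas and Ifit genes outside the list did not pass: Oas1c (0.26, limma adjusted p = 0.112), Oas1g (-0.22, 0.237), Oasl1 (-0.26, 0.298) and Ifit3b (-0.09, 0.712).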
